A study of Caenorhabditis elegans with 12 samples.

Results

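Slow feeding was examined in 6 of the 12 libraries of the series: 3 from eat-2(ad465) worms (strain DA465) and 3 from wild-type worms (strain N2), both with an intact acs-20 gene. The libraries were chosen by their labelled genotype, and the difference between them was described over all 14390 genes that passed a filter on low counts, of 46739 listed. RNA came from whole worms grown at 20 °C to the late L4 larval stage, just before adulthood. The other 6 libraries, from acs-20(tm3232) worms (strain DCL29) and eat-2(ad465); acs-20(tm3232) double mutants (strain DCL33), 3 each, entered the same fit and gave the eat-2 mutation a second comparison that shares no library with the first. Each genotype was 1 strain, so a difference made by the eat-2 allele and one carried elsewhere in the genome of DA465 cannot be told apart.

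EAT-2 is a subunit of a nicotinic acetylcholine receptor in pharyngeal muscle. The pharynx is the pump with which Caenorhabditis elegans takes in and grinds bacteria, and EAT-2 lets it answer the motor neurons that set a fast pumping rate. Mutants pump slowly, take in less food, grow thin and live long, and they are widely used as a genetic form of dietary restriction. The worm has no separate liver or fat tissue: its intestine digests food, stores fat, makes yolk and faces the bacteria that are eaten.

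Counts in genes ran from 8253781 to 10842659 in these 6 libraries. The eat-2 gene itself was read too rarely to check the labels, with 0, 2 and 1 counts in the wild-type libraries and 0, 0 and 0 in eat-2, and was not among the tested genes. On the first principal component of the 6 libraries, which held 51.4% of their variance, wild-type lay between -35.5 and -29.3 and eat-2 between 29.6 and 35.7. The second, with 21.6%, spread the libraries within both groups, from -28.1 to 22.3 in wild-type and from -22.3 to 28.1 in eat-2. Markers of the tissues of a whole worm were present: 19 of 21 listed intestine genes, 26 of 26 body wall muscle genes, 34 of 34 germline genes and 9 of 10 pharyngeal muscle genes were among the tested genes. Levels are CPM values, counts scaled by library size and normalization factor but not by gene length, so they are compared between libraries and not between genes.

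In eat-2, 1103 of the 14390 tested genes had changed at an adjusted p under 0.05 (edgeR quasi-likelihood test), or 7.67% (4.12% up and 3.54% down). Of these, 593 were higher, with a median log2 fold change of 1.14, and 510 were lower, with a median of -0.77, against a median of 0.04 over all tested genes. Increases reached further than decreases: 108 genes rose and 57 fell by at least 4-fold, and 48 rose and 32 fell by at least 8-fold. The risen genes together took 2.26 to 2.49% of the counts in tested genes in the wild-type libraries and 4.3 to 5.23% in eat-2. The fallen genes went from 7.92 to 8.41% to 5.06 to 5.34%. The 3 libraries of the groups did not overlap for 1097 of the 1103 genes, as was true of 24.6% of all tested genes. Leaving out wild-type replicate 1 lowered the number of calls to 576, and leaving out wild-type replicate 3 lowered it to 724. With eat-2 replicate 1 set aside it was 712, and with eat-2 replicate 3 set aside 708. The balance of directions moved with the setting, and risen genes were 53.8% of the calls here, 45.2% with DESeq2, 46.3% without the filter and 64.0% without eat-2 replicate 2.

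**Figure D1:**
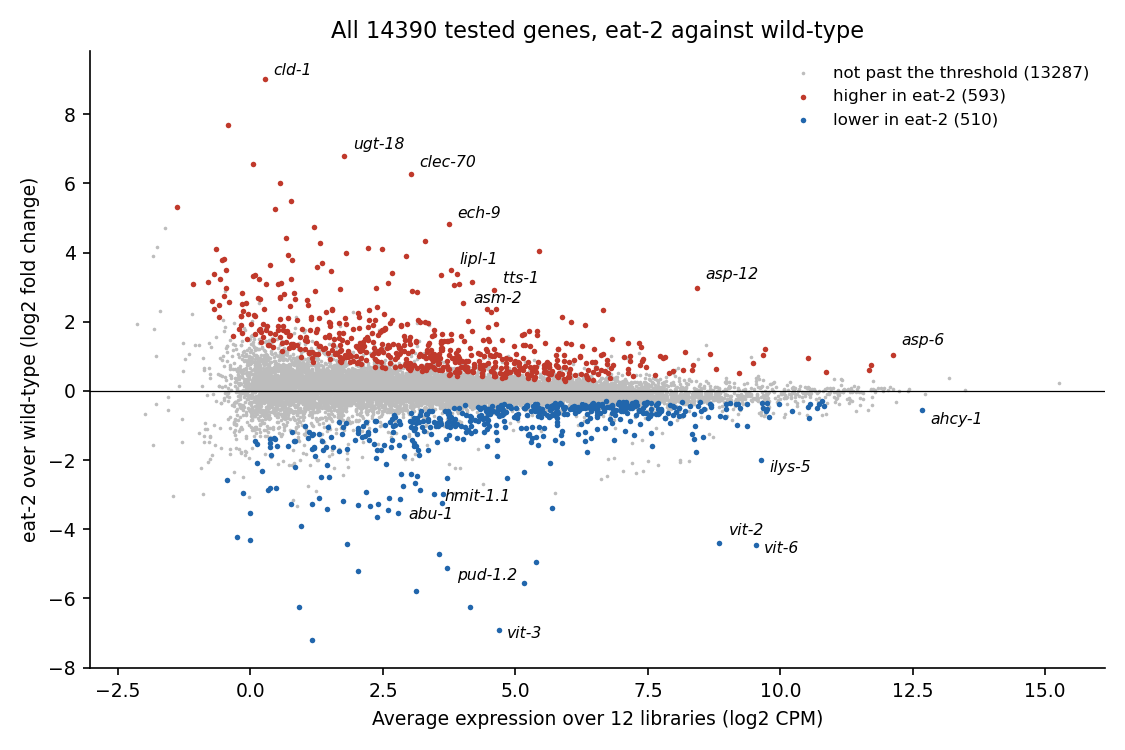
Each point is 1 of 14390 tested genes. The x axis gives its average level over the wild-type and eat-2 libraries (log2 CPM), although its label names 12 libraries. The y axis gives its log2 fold change in eat-2 over wild-type. Red points (593) are higher and blue points (510) lower at an adjusted p under 0.05, and the vitellogenin genes lie lowest among the abundant ones while asp-12 and asp-6 stand out at the right above 0.

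Yolk genes were lower in eat-2. The 6 vitellogenin genes encode the lipid-carrying yolk proteins that the intestine makes for the oocytes from late L4 on, and all 6 of 6 were lower, with a median log2 of -5.25. vit-1 was read at 248, 287 and 171 CPM in the wild-type libraries and 9.77, 7.91 and 5.37 in eat-2. Its log2 fold change was log2 -4.95, SE 0.294, adjusted p = 2.81e-06. vit-6, whose product is cut into the smaller yolk proteins, went from 4131, 4847 and 1968 to 231, 155 and 116 CPM, and vit-2 from 2575, 3203 and 1149 to 180.2, 84.2 and 64.3. Every wild-type library lay far above every eat-2 library for both, and the changes were log2 -4.45, SE 0.621, adjusted p = 0.00284 and log2 -4.40, SE 0.729, adjusted p = 0.0069. vit-5 was at 430.0, 643 and 126 CPM in wild-type and 23.5, 1.63 and 1.13 in eat-2 (log2 -5.55, adjusted p = 0.0201, the call ended without eat-2 replicate 2 or 3 or wild-type replicate 1 (adjusted p = 0.0548 to 0.0709)). The vit genes share long stretches of sequence and reads with more than 1 position were set aside, so the split between vit-3, vit-4 and vit-5 is uncertain. In bulk RNA, fewer cells of a type and less RNA per cell cannot be told apart.

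Of 8 listed regulators of yolk genes and the yolk receptor, 1 rose and 1 fell. ceh-60, a homeobox gene needed for vitellogenin expression, went from 16.07, 15.8 and 16.8 to 9.05, 7.44 and 7.54 CPM, with no overlap of the groups (log2 -1.02, SE 0.184, adjusted p = 0.00376). pqm-1, which encodes a zinc finger factor active in the intestine, went from 42.2, 33.5 and 35.7 to 69.4, 53.7 and 52.6 (log2 0.66, SE 0.142, adjusted p = 0.0122), and the call ended without eat-2 replicate 1 (adjusted p = 0.053). unc-62, the homeobox partner of ceh-60, was at 61.9, 55.6 and 68.1 CPM in wild-type and 55.5, 45.9 and 55.1 in eat-2 and did not pass (log2 -0.25, adjusted p = 0.302).

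Wild-type replicate 3 had the lowest vitellogenin sum of its group, 3647 CPM against 7917 and 9689, and eat-2 had 456, 251 and 189. Vitellogenins come on with age at this stage, so markers of stage were measured beside them. The late collagen gene col-19 was at 309, 581 and 109 CPM in wild-type and 78.5, 79.5 and 41 in eat-2, with wild-type replicate 3 lowest in its group and above all 3 eat-2 libraries (log2 -2.33, SE 0.886, adjusted p = 0.161; 0.0456 with the 6 libraries alone). Of 16 adult and late L4 cuticle genes 15 had log2 values below 0 and none passed, with a median of -0.65. Under other settings falls did pass: 8 with DESeq2, 3 with the 6 libraries alone, 3 with the replicate block, 4 without double mutant replicate 2, and 3 without wild-type replicate 2. Leaving out acs-20 replicate 2, eat-2 replicate 3 or double mutant replicate 3 gave 1 fall each. In the double mutant against acs-20, 12 of the 16 fell, with a median of -0.92. Their summed level ran from 17989 to 26292 CPM in wild-type and from 13235 to 20198 in eat-2, with overlap of the groups. The 43 genes of moulting and stage timing had a median of -0.04. Of these, 1 passed, the moult regulator nhr-23 (37.8, 51 and 38.1 CPM to 60, 65.9 and 61.9, log2 0.56, SE 0.127, adjusted p = 0.0149), and the call ended without eat-2 replicate 2 or wild-type replicate 1 or 3 (adjusted p = 0.0524 to 0.0806). The 34 germline, 56 sperm and 20 oocyte genes held no call, and their summed levels overlapped between the groups. The part of a stage difference in the fall of the yolk genes was not tested.

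**Figure D2:**
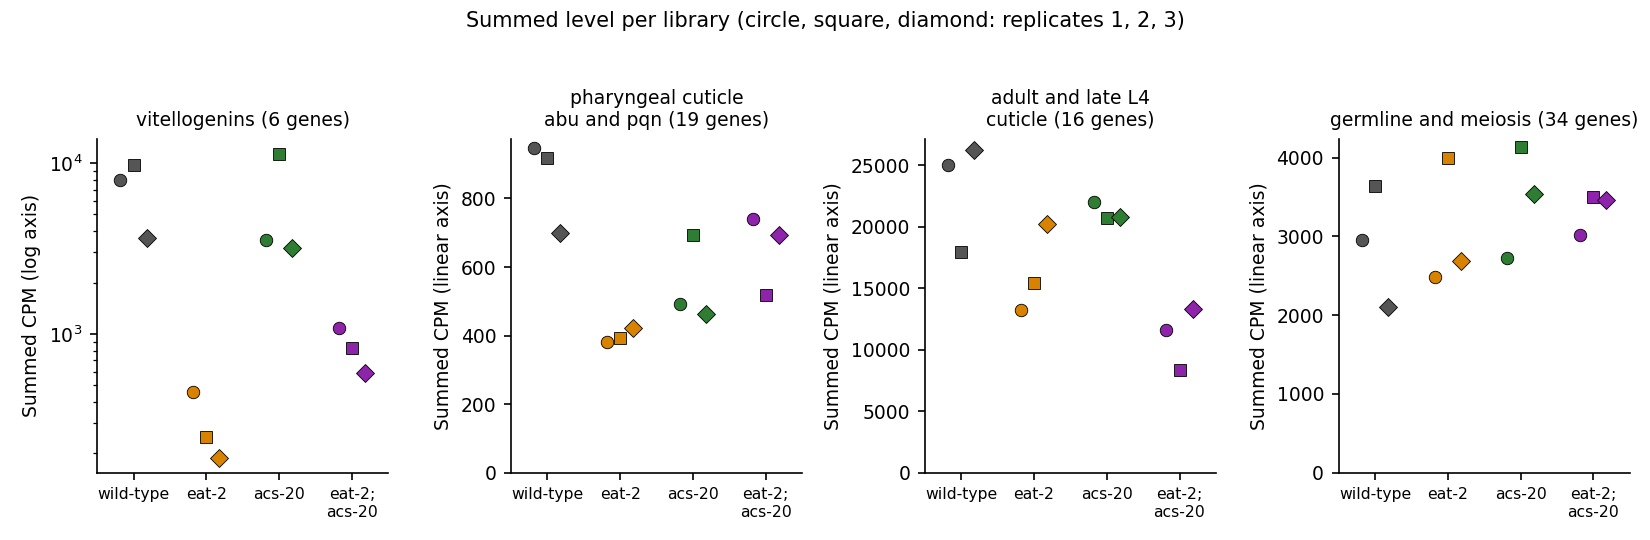
Summed CPM of 4 gene lists in each of the 12 libraries, by genotype, on a log axis for the vitellogenins and on linear axes from 0 for the others. The 3 eat-2 libraries hold 189 to 456 CPM of vitellogenin reads against 3647 to 9689 in wild-type, and the germline sums overlap. The abu and pqn sums are 381.5 to 421.2 CPM in eat-2 and 699.8 to 946.6 in wild-type. In the double mutant they are 518.3 to 739.4, overlapping both wild-type and acs-20 (463.9 to 694.0).

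The pud genes were the other group that fell as a whole. Of 6 listed, 3 were expressed enough to be tested and all 3 were lower, with a median log2 of -5.22. pud-1.2 went from 75.1, 56.6 and 90.3 to 2.29, 2.09 and 1.98 CPM (log2 -5.12, SE 0.251, adjusted p = 7.99e-08) and pud-3 from 57.8, 39.9 and 86 to 0.965, 1.16 and 1.13 (log2 -5.79, SE 0.421, adjusted p = 9.28e-06). For both, every wild-type library lay far above every eat-2 library. The pud genes have near-identical copies, so the share of each is uncertain.

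Genes of the pharynx, the organ in which EAT-2 acts, were examined next. The abu and pqn genes encode proteins rich in glutamine and asparagine that are made for the lining of the pharynx during moults, and 15 of the 19 tested were lower in eat-2, with a median log2 of -2.80. abu-1 was at 29.4, 32 and 9.93 CPM in wild-type and 2.53, 1.98 and 1.7 in eat-2 (log2 -3.53, SE 0.707, adjusted p = 0.0135), and pqn-2 at 21.6, 22.9 and 5.11 CPM in wild-type and 0.362, 1.05 and 0.848 in eat-2 (log2 -4.42, SE 0.89, adjusted p = 0.0136). As with the yolk genes, wild-type replicate 3 was the lowest of its group, and the groups did not overlap. In the fits with fewer libraries, the count was 1 with eat-2 replicate 3 left out, 2 with eat-2 replicate 2 left out, 3 with eat-2 replicate 1 left out, 7 with wild-type replicate 1 left out and 9 with wild-type replicate 2 left out. Without any 1 eat-2 library abu-1 and pqn-2 were at adjusted p values of 0.0533 to 0.0759. In acs-20 mutants the same mutation gave these genes a median log2 of 1.04, with 2 calls down and none up. There the acs-20 libraries had 4.44, 18.2 and 3.37 CPM of abu-1 and the double mutant 26.1, 14 and 22.2, and the groups overlapped. The abu genes also share sequence, and the opposite-strand genes AC3.16 and C03A7.15 lie over abu-1 and abu-6.

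Of 9 tested pharyngeal muscle genes 7 had log2 values below 0, and 1 passed. myo-2, the myosin heavy chain of pharyngeal muscle, went from 75.8, 84.2 and 76.2 to 51.5, 53.7 and 44.4 CPM (log2 -0.66, SE 0.167, adjusted p = 0.0276), and the call ended without eat-2 replicate 1 or 3 or wild-type replicate 1, 2 or 3 (adjusted p = 0.0605 to 0.117). myo-1, the other pharyngeal myosin, was at 77.1, 87 and 103 CPM in wild-type and 73.3, 59.4 and 54.5 in eat-2 and did not pass (log2 -0.51, adjusted p = 0.0606), though it passed with DESeq2 (0.0284), without the filter (0.00242) and without acs-20 replicate 2 (0.0262) or eat-2 replicate 1 (0.0399). The list median was -0.38. With other settings 0 to 4 of its members passed. Set against acs-20, the double mutant had 6 of the 9 pharyngeal muscle genes called up and none down, with a median log2 of 0.85. The difference between the 2 effects passed for 3 of them. In eat-2 against wild-type, all 26 body wall muscle genes had log2 values below 0, with a median of -0.26, and 5 passed. Among them were unc-22, the giant kinase twitchin (255, 254 and 277 CPM to 163, 192 and 169, log2 -0.58), and unc-15, paramyosin (1851, 1736 and 1544 to 1242, 1408 and 1331, log2 -0.37). In the fits with fewer libraries, the count was 0 with eat-2 replicate 1 or wild-type replicate 1 left out, 1 with eat-2 replicate 3 left out, 2 with wild-type replicate 2 left out, 3 with acs-20 replicate 2 or 3 or eat-2 replicate 2 left out and 11 with double mutant replicate 1 left out. The call of unc-22 ended without eat-2 replicate 1 or 3 or wild-type replicate 1 or 3 (adjusted p = 0.0549 to 0.0748). The call of unc-15 ended without acs-20 replicate 2 or 3, eat-2 replicate 1 or 3 or wild-type replicate 1 or 2 (adjusted p = 0.053 to 0.179) and with the 6 libraries alone (0.0598).

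Digestive proteases moved in both directions. The gut lumen and lysosomes of the worm hold aspartyl proteases (asp genes) and cathepsin B-like and L-like cysteine proteases (cpr and cpl genes), and of 29 tested 5 rose and 8 fell. asp-12 stood at 154, 131 and 89.4 CPM in wild-type and 1174, 893 and 892 in eat-2 (log2 2.98, SE 0.211, adjusted p = 4.52e-06). asp-6, of the same family, went from 3338, 2985 and 3159.6 to 7775, 5805 and 5689 (log2 1.02, SE 0.11, adjusted p = 6.73e-05). For asp-6 eat-2 replicate 1 lay above the others, and the gap between the groups was larger than the spread within either. cpr-3 rose from 24.2, 24 and 22.1 to 94.9, 65.8 and 71.5 CPM (log2 1.72) and cpr-4 from 1268, 992 and 915 to 2189, 1999.9 and 1969 (0.96). asp-3 rose too (2733, 2653 and 2605 to 4965, 3804 and 3484, log2 0.62).

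Other proteases fell. cpr-6 went from 1143, 1005 and 1281 to 679, 666 and 695 CPM (log2 -0.75, SE 0.0993, adjusted p = 0.00037), cpr-9 from 1619.8, 1396 and 1381 to 1019, 940.1 and 987 (log2 -0.58) and the cathepsin L gene cpl-1 from 1823, 1472 and 1881 to 1219, 1276 and 1269 (log2 -0.46). In each case the highest eat-2 library was below the lowest wild-type library. The count of fallen proteases was 5 without eat-2 replicate 3, wild-type replicate 1 or wild-type replicate 3, and that of risen ones 8 without eat-2 replicate 2. 21ur-14330, a small RNA gene annotated inside cpr-4 on the other strand, rose too. The strand setting of the counting is not given, so reads of these genes cannot be told apart.

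Single genes of the lysosome and of lipid and DNA digestion changed as well. lipl-1, an acid lipase known to come on in fasted worms, was at 3.32, 2.73 and 6.62 CPM in wild-type and 61.3, 38.4 and 42 in eat-2 (log2 3.48, SE 0.327, adjusted p = 6.05e-05). It was the 1 call among 7 tested lysosomal lipases. lipl-5, induced by fasting too, was at 251, 226 and 364 CPM in wild-type and 223, 190.1 and 203 in eat-2 and did not pass (log2 -0.45, adjusted p = 0.0812), though it passed with DESeq2 (0.0482), without the filter (0.00497) and without wild-type replicate 2 (0.0245). nuc-1, which encodes the acid DNase that breaks down DNA of dead cells and of eaten bacteria, fell from 103, 85.5 and 127 to 24.9, 20.1 and 28.7 CPM (log2 -2.09, SE 0.166, adjusted p = 5.35e-06). lmp-2, a lysosomal membrane protein gene, rose from 13.8, 13.5 and 15.7 to 42, 27.1 and 30.1 (log2 1.2, SE 0.171, adjusted p = 0.000679). Of all tested genes 4.12% rose and 3.54% fell. Over 53 genes of autophagy and lysosomes 2 rose and 2 fell, near those shares, with a median log2 of 0.06. For the rises the count was 1 with acs-20 replicate 3, eat-2 replicate 1 or wild-type replicate 1, 2 or 3 left out and 4 with double mutant replicate 1 left out. For the falls the count was 1 with eat-2 replicate 1, 2 or 3 or wild-type replicate 1 or 3 left out. lgg-1, the ATG8 protein of autophagosomes, was at 214, 216 and 171 CPM in wild-type and 321, 231 and 246 in eat-2 (log2 0.41, adjusted p = 0.234), and hlh-30, the worm relative of TFEB, at 75.5, 71 and 80.5 CPM in wild-type and 98.7, 84.7 and 89.3 in eat-2 (log2 0.26, adjusted p = 0.113). Neither passed. The receptor gene sqst-1 was higher (94.1, 92.2 and 80.7 to 187, 116 and 123, log2 0.67), and the call ended without acs-20 replicate 3, eat-2 replicate 1 or wild-type replicate 1, 2 or 3 (adjusted p = 0.052 to 0.13) and with the 6 libraries alone (0.0528).

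**Figure D3:**
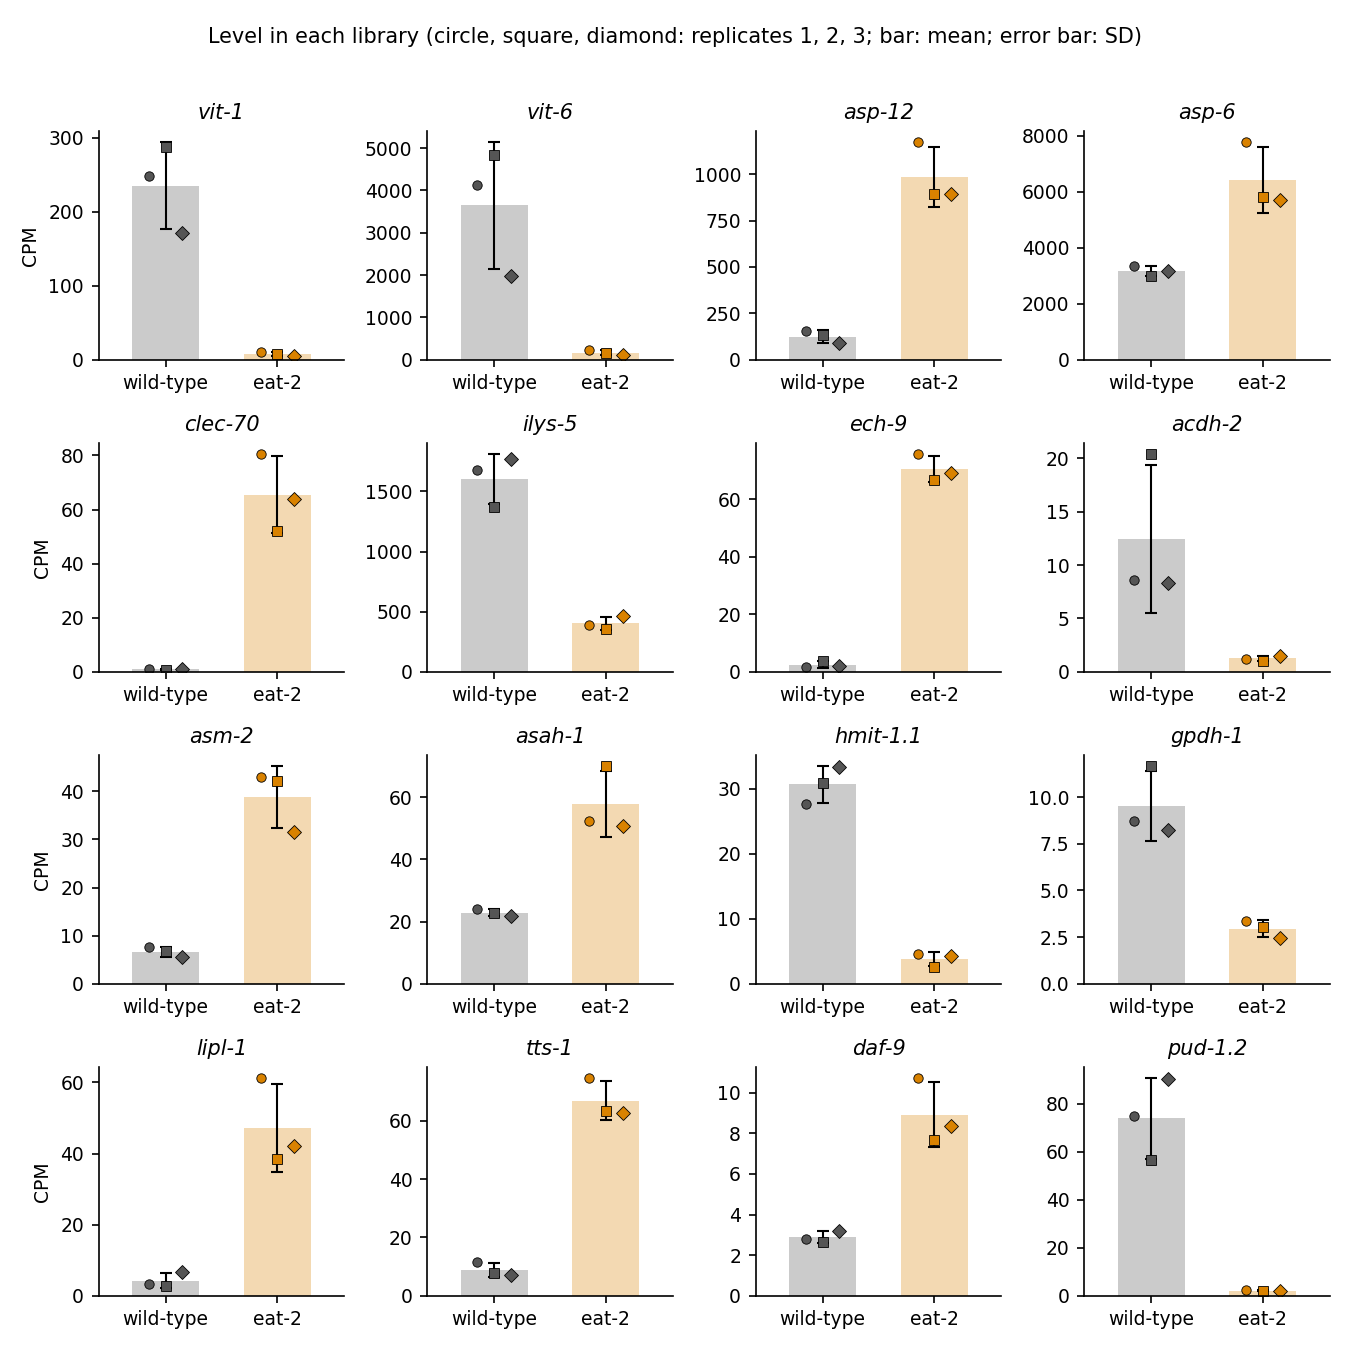
Level in CPM of 16 genes in the 3 wild-type (grey) and 3 eat-2 (orange) libraries on linear axes from 0. Points are libraries, bars means and error bars the SD of 3 libraries. In each of the 16 panels the highest library of the lower group is below the lowest library of the higher group. This was so for 1097 of the 1103 changed genes, and the rule for named genes partly required it.

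Fat breakdown genes were more often lower than higher. Of 44 genes of beta-oxidation and the carnitine shuttle 15 fell and 3 rose, and 35 had log2 values below 0. acdh-2, a mitochondrial acyl-CoA dehydrogenase, went from 8.61, 20.4 and 8.32 to 1.21, 1.05 and 1.51 CPM (log2 -3.29, SE 0.396, adjusted p = 0.000173). kat-1, the thiolase that closes the mitochondrial cycle, went from 219.6, 209 and 234 to 153, 128 and 145 (log2 -0.64, SE 0.103, adjusted p = 0.00174), and acdh-7 from 207, 169 and 223 to 131, 122 and 143 (log2 -0.60, SE 0.119, adjusted p = 0.00724). Every wild-type library was above every eat-2 library for all 3. In all, 6 of the 13 tested acyl-CoA dehydrogenase (acdh) genes fell and none rose. The carnitine palmitoyltransferase gene cpt-5 fell from 19.9, 18.6 and 23.6 to 10, 7.09 and 8.57 CPM (log2 -1.27, SE 0.164, adjusted p = 0.000284). The count of fallen genes was 9 without wild-type replicate 3.

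The 3 risen genes of the list were ech-9, hacd-1 and acox-1.5. ech-9 encodes an enoyl-CoA hydratase and was at 1.66, 3.86 and 1.91 CPM in wild-type and 75.9, 66.9 and 69.1 in eat-2 (log2 4.81, SE 0.237, adjusted p = 7.99e-08). hacd-1, a hydroxyacyl-CoA dehydrogenase gene, was at 39.3, 37.8 and 47.5 CPM in wild-type and 120.3, 109 and 89.1 in eat-2 (log2 1.35, SE 0.183, adjusted p = 0.000526). acox-1.5 belongs to the peroxisomal acyl-CoA oxidases, which also shorten the side chains of the ascaroside pheromones. It rose from 48.3, 53.7 and 24.3 to 163, 161 and 145 CPM (log2 1.89, SE 0.274, adjusted p = 0.0016), while its relative acox-1.2 fell from 134, 107 and 232 to 55.9, 29.9 and 51.9 (log2 -1.78, SE 0.302, adjusted p = 0.00457). The 2 genes thus moved in opposite directions with no overlap of the groups in either.

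Among 31 genes of fatty acid synthesis, desaturation and elongation 2 rose and none fell, against 4.12% and 3.54% of all tested genes. fat-5, a delta-9 desaturase that acts on palmitate, went from 8.09, 7.72 and 8.02 to 23.3, 25.5 and 16.48 CPM (log2 1.45, SE 0.173, adjusted p = 0.00016). nhr-80, a nuclear receptor that drives delta-9 desaturase genes in the worm, went from 14.3, 16.7 and 20.4 to 42.9, 32.1 and 33.4 (log2 1.08, SE 0.157, adjusted p = 0.000826). fat-7, a desaturase for stearate that falls in fasted worms, was at 117, 141 and 104 CPM in wild-type and 116, 86.2 and 128 in eat-2, and the groups overlapped (log2 -0.14, adjusted p = 0.722). Of 26 genes of the fasting response 5 rose and 3 fell, and for the falls the count was 1 with eat-2 replicate 1 or 2 or wild-type replicate 1 or 3 left out. acs-2, the acyl-CoA synthetase often used as a fasting reporter, was at 6.12, 8.66 and 4.61 CPM in wild-type and 16.4, 12.4 and 10.2 in eat-2, higher in each eat-2 library, but did not pass (log2 1.00, SE 0.398, adjusted p = 0.166; 0.0255 without double mutant replicate 1). icl-1, of the glyoxylate cycle, was at 481, 521 and 539 CPM in wild-type and 306, 305 and 308 in eat-2 (log2 -0.75, SE 0.194, adjusted p = 0.0346), and the call ended without eat-2 replicate 1, 2 or 3 or wild-type replicate 1, 2 or 3 (adjusted p = 0.0724 to 0.1) and with no filter (0.0807).

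Genes of sphingolipid metabolism rose in both branches. Of 26 tested 9 were higher and none lower, with a median log2 of 0.35. On the breakdown side, asm-2, an acid sphingomyelinase gene, went from 7.57, 6.78 and 5.52 to 43.1, 42.1 and 31.5 CPM (log2 2.55, SE 0.182, adjusted p = 2.81e-06). gba-1, a glucosylceramidase gene, went from 36.6, 32.9 and 41.1 to 98.6, 81.9 and 73.5 (log2 1.2, SE 0.12, adjusted p = 4.09e-05), and asah-1, the acid ceramidase gene, from 24.1, 22.8 and 21.8 to 52.5, 70.1 and 50.8 (log2 1.34, SE 0.155, adjusted p = 0.000132). gba-4, another glucosylceramidase gene, rose by a log2 of 1.01. On the synthesis side, the serine palmitoyltransferase gene sptl-1 went from 127, 137 and 153 to 251, 210.1 and 209 CPM (log2 0.68, SE 0.132, adjusted p = 0.00607), and the ceramide synthase gene hyl-1 from 72.5, 59.3 and 64.4 to 132, 113 and 104 (log2 0.83, SE 0.166, adjusted p = 0.00761). cgt-1, which adds glucose to ceramide, went from 3.73, 5.55 and 4.21 to 11.9, 10 and 9.89 (log2 1.23, SE 0.246, adjusted p = 0.00741). For each of these genes all 3 eat-2 libraries were above all 3 wild-type libraries. sptl-2 and sptl-3 also passed, at log2 values of 0.70 and 0.46. The call of sptl-3 ended without acs-20 replicate 3, eat-2 replicate 1 or 3, double mutant replicate 3 or wild-type replicate 1 or 3 (adjusted p = 0.0503 to 0.13) and with the 6 libraries alone (0.061). The call of sptl-2 ended without eat-2 replicate 1 or wild-type replicate 1 (adjusted p = 0.0511 to 0.0722). Over the fits without 1 library 7 to 9 of the list rose.

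Worms answer high salt by making glycerol and taking up inositol, and of 15 genes of osmolyte synthesis and transport 7 fell and 1 rose. hmit-1.1, an inositol transporter gene, went from 27.7, 31 and 33.4 to 4.58, 2.56 and 4.33 CPM (log2 -2.99, SE 0.235, adjusted p = 5.07e-06), and hmit-1.2 from 3.42, 4.9 and 4.61 to 1.21, 1.28 and 1.41 (log2 -1.72, SE 0.237, adjusted p = 0.00051). gpdh-1, the glycerol-3-phosphate dehydrogenase induced by osmotic stress, went from 8.71, 11.7 and 8.22 to 3.38, 3.02 and 2.45 (log2 -1.70, SE 0.269, adjusted p = 0.00156). Groups did not overlap in any of the 3. tps-1, which makes trehalose, was higher (20.8, 26.6 and 24.4 to 42.5, 32.2 and 29.5, log2 0.53), and the call ended without acs-20 replicate 1, 2 or 3, eat-2 replicate 1 or 2, double mutant replicate 2 or 3 or wild-type replicate 1 or 3 (adjusted p = 0.05005 to 0.192) and with the 6 libraries alone (0.0982), with RLE factors (0.0513). For the falls, the count was 3 with wild-type replicate 1 left out and 4 with eat-2 replicate 2 or 3 or wild-type replicate 3 left out.

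Most calls in central carbon and amino acid pathways pointed down. Of 53 genes of glycolysis, gluconeogenesis, the glyoxylate cycle and the TCA cycle 10 fell and none rose, and 44 had log2 values below 0, with a median of -0.20. pygl-1, glycogen phosphorylase, went from 739, 659 and 739.9 to 495, 508 and 516 CPM (log2 -0.49, SE 0.0897, adjusted p = 0.00408), and tpi-1, triosephosphate isomerase, from 175, 174 and 193 to 142, 131 and 139 (log2 -0.40, SE 0.087, adjusted p = 0.0133). The call of tpi-1 ended without wild-type replicate 3 (adjusted p = 0.0539). For these falls the count was 1 with wild-type replicate 3 left out, 2 with wild-type replicate 1 left out, 3 with eat-2 replicate 2 or 3 left out and 5 with eat-2 replicate 1 left out.

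Of 27 genes of propionate breakdown, vitamin B12 use and the methionine cycle 6 fell and none rose. ahcy-1 encodes the enzyme that removes S-adenosylhomocysteine after methylation and was at 7828, 7965 and 7826 CPM in wild-type and 5972, 4733 and 5550.4 in eat-2 (log2 -0.54, SE 0.124, adjusted p = 0.0167). The call of ahcy-1 ended without eat-2 replicate 2 or 3 or wild-type replicate 1 (adjusted p = 0.0522 to 0.0555). cth-1, a cystathionine gamma-lyase gene, went from 24.1, 23.1 and 28.7 to 13.1, 10.1 and 11.6 (log2 -1.12, SE 0.13, adjusted p = 0.000133), and hach-1, of valine and propionate breakdown, from 291, 273 and 331 to 191, 145 and 186 (log2 -0.78, SE 0.121, adjusted p = 0.00134). acdh-1, the dietary sensor of that pathway, was at 2413, 2112 and 2589 CPM in wild-type and 2088, 1602 and 1973 in eat-2 and did not pass (log2 -0.33, adjusted p = 0.119), though it passed without the filter (0.0133) and with the replicate block (0.0394). Without wild-type replicate 3 the count was 3. Of 36 genes of amino acid breakdown 8 fell and 2 rose, against 3.54% and 4.12% of all tested genes. Among the fallen were tdo-2, tryptophan dioxygenase (159, 142 and 184 CPM to 101, 103 and 119.9, log2 -0.59), and bckd-1B, of branched-chain amino acid breakdown (119, 126 and 138 to 99.8, 81 and 94.8, log2 -0.48). Without wild-type replicate 3, 4 fell, and for the rises the count was 1 with eat-2 replicate 1 or 3 or wild-type replicate 2 or 3 left out. The peptide transporter gene pept-1 was at 391, 367 and 359.8 CPM in wild-type and 385, 304 and 309.6 in eat-2, and the groups overlapped (log2 -0.16, adjusted p = 0.542).

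Defence genes of the intestine more often rose than fell. Of 43 tested intestinal immune genes 15 rose and 5 fell, and of 103 C-type lectin (clec) genes, whose secreted products bind sugars, 25 rose and 8 fell. clec-70 was nearly silent in wild-type, at 0.829, 0.659 and 1 CPM, and stood at 80.6, 52.2 and 63.9 in eat-2 (log2 6.29, SE 0.222, adjusted p = 2.06e-09). clec-63, an abundant lectin transcript, rose from 2776, 2410.0 and 2648 to 5266, 4146 and 3796 (log2 0.75, SE 0.111, adjusted p = 0.000874), and clec-169 from 4.98, 4.8 and 5.92 to 54.2, 50.5 and 28.5 (log2 3.08, SE 0.243, adjusted p = 6.58e-06). No eat-2 library came near a wild-type library for clec-70, and the groups stood apart for the other lectins too. dod-21, of a cluster that responds to pathogens and to insulin signalling, went from 0.311, 0.188 and 0 to 8.81, 8.02 and 7.44 CPM (log2 5.50, SE 0.407, adjusted p = 3.64e-06), and dod-22 of the same cluster from 7.67, 9.13 and 6.92 to 25.1, 17.7 and 21.4 (log2 1.43, SE 0.216, adjusted p = 0.00105). zip-2, a bZIP factor of the infection response, went from 369, 347 and 349 to 631, 479.9 and 534 (log2 0.63, SE 0.123, adjusted p = 0.0069).

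The 5 immune genes that fell were led by ilys-5 and spp-17. ilys-5, an invertebrate-type lysozyme that cleaves bacterial walls, went from 1676, 1371 and 1768 to 390.0, 355 and 463 CPM (log2 -1.99, SE 0.138, adjusted p = 2.81e-06). spp-17, of the saposin-like proteins with antibacterial activity, went from 669, 666 and 551 to 193, 159 and 199 (log2 -1.77, SE 0.137, adjusted p = 4.52e-06), and spp-1 from 50.9, 52.2 and 69 to 29.2, 24.7 and 28.8 (log2 -1.06, SE 0.127, adjusted p = 0.000172). All 3 fell with no overlap, while spp-18 rose from 25, 16.3 and 25.7 to 66.7, 47.9 and 54.3 CPM (log2 1.34, SE 0.16, adjusted p = 0.000162). Saposin-like genes as a family split 5 up and 3 down of 21. For the fallen lectins the count was 4 with eat-2 replicate 3 or wild-type replicate 1 or 3 left out and 5 with eat-2 replicate 1 or 2 left out. Of 15 tested pals genes, a family switched on by viruses and microsporidia, 5 rose and none fell. pals-23 went from 8.61, 8.38 and 6.12 to 27.6, 23.6 and 21.6 CPM (log2 1.65, SE 0.195, adjusted p = 0.000149) and pals-39 from 2.28, 1.88 and 1.4 to 9.05, 8.37 and 7.16 (log2 2.13, SE 0.376, adjusted p = 0.00349). Of 17 tested epidermal antimicrobial peptide genes 12 had log2 values above 0, and 2 rose. nlp-31 went from 20.7, 24.3 and 31.5 to 35.7, 38.8 and 43.4 CPM (log2 0.63, SE 0.148, adjusted p = 0.019), and the call ended without eat-2 replicate 3 or wild-type replicate 1 or 2 (adjusted p = 0.0508 to 0.0941) and with the 6 libraries alone (0.0667). nlp-28 went from 0.622, 0.941 and 0.401 to 2.53, 2.33 and 1.51 (log2 1.65, SE 0.409, adjusted p = 0.0244), and the call ended without eat-2 replicate 1 or 2 or wild-type replicate 1 or 3 (adjusted p = 0.0718 to 0.0964). Groups did not overlap in either gene. For these rises the count was 0 with wild-type replicate 1 left out and 1 with eat-2 replicate 1, 2 or 3 or wild-type replicate 2 or 3 left out, and 4 passed with DESeq2. nlp-29, a gene of the same list with which the epidermis answers wounds and fungi, was at 4.87, 6.97 and 6.72 CPM in wild-type and 7, 6.98 and 10.2 in eat-2, and the groups nearly touched (log2 0.39, adjusted p = 0.423).

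Detoxification families differed, some of them split and some mostly lower. UDP-glucuronosyltransferases (ugt), which couple sugars to foreign compounds, had 10 up and 12 down of 56. ugt-18 went from 0.311, 0.282 and 0.1 to 32, 29.2 and 21 CPM (log2 6.80, SE 0.472, adjusted p = 3.34e-06), whereas ugt-6 went from 39.7, 36.1 and 38.8 to 13.4, 11.7 and 12.7 (log2 -1.60, SE 0.151, adjusted p = 2.67e-05). Cytochrome P450 (cyp) genes had 8 up and 5 down of 53, and the count of rises was 5 without wild-type replicate 1, that of falls 3 without eat-2 replicate 2, eat-2 replicate 3 or wild-type replicate 3. cyp-13A5 went from 2.38, 1.79 and 2.11 to 49.2, 45.2 and 31.6 CPM (log2 4.32, SE 0.316, adjusted p = 6.58e-06). The glutathione S-transferases (gst) had 4 down and none up of 26. gst-4, the common reporter of the oxidative stress factor SKN-1, went from 10.1, 14.6 and 10.6 to 4.34, 3.37 and 4.24 (log2 -1.56, SE 0.182, adjusted p = 0.000139), and gst-10 from 67.5, 65.5 and 113 to 15.4, 15.6 and 17 (log2 -2.35, SE 0.194, adjusted p = 9.62e-06). skn-1 itself was at 125, 138 and 111 CPM in wild-type and 146, 129.5 and 135 in eat-2 (log2 0.13, adjusted p = 0.503). Carboxylesterases (cest) had 11 down and 1 up of 28, with cest-10 among the fallen (12.2, 13.3 and 17 CPM to 3.14, 6.05 and 5.75, log2 -1.50), and 7 fell without eat-2 replicate 2, eat-2 replicate 3 or wild-type replicate 1. pgp-1, an ABC transporter of the intestinal surface that exports drugs, rose from 49.5, 35.9 and 49.1 to 238, 267 and 179 CPM (log2 2.35, SE 0.218, adjusted p = 4.09e-05).

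Of 44 regulators tied to dietary restriction and lifespan 7 rose and none fell, with a median log2 of 0.09. tts-1, a long noncoding RNA that lowers ribosome levels in long-lived worms, was at 11.6, 7.63 and 7.22 CPM in wild-type and 74.8, 63.5 and 62.6 in eat-2 (log2 2.93, SE 0.265, adjusted p = 4.47e-05). daf-9, the cytochrome P450 that makes the dafachronic acid hormones, was at 2.8, 2.64 and 3.21 CPM in wild-type and 10.7, 7.67 and 8.38 in eat-2 (log2 1.63, SE 0.212, adjusted p = 0.000322). fmo-2, a flavin monooxygenase gene induced by fasting and needed for long life under restriction, was low, at 0.415, 0.282 and 0.1 CPM in wild-type and 1.21, 2.21 and 1.32 in eat-2, but the groups did not overlap (log2 2.51, SE 0.498, adjusted p = 0.00712). nhr-80 and pqm-1, given above, are on this list too. The other risen members were the partner factors mml-1 and mxl-2, at log2 values of 0.43 and 0.50, and 4 of the 7 passed without eat-2 replicate 1. The call of mml-1 ended without acs-20 replicate 3, eat-2 replicate 1, 2 or 3, double mutant replicate 2 or 3 or wild-type replicate 1 (adjusted p = 0.0513 to 0.17) and with the 6 libraries alone (0.103). The call of mxl-2 ended without acs-20 replicate 1, 2 or 3, eat-2 replicate 1, 2 or 3, double mutant replicate 2 or 3 or wild-type replicate 1 or 3 (adjusted p = 0.0531 to 0.178) and with the 6 libraries alone (0.103), with RLE factors (0.0512). Transcripts of other factors through which restriction is known to act were not past the threshold: pha-4 was at 13.7, 11.9 and 13.8 CPM in wild-type and 19.5, 14.9 and 16.3 in eat-2 (log2 0.36, adjusted p = 0.305), and nhr-62 at 6.95, 4.9 and 5.82 CPM in wild-type and 7.12, 6.51 and 6.88 in eat-2 (log2 0.22, adjusted p = 0.513). A transcript level does not measure the activity of its protein.

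Among all 177 tested nuclear hormone receptor (nhr) genes 18 rose and 1 fell, and 132 had log2 values above 0, with a median of 0.22. For the fall the count was 0 with acs-20 replicate 1 or 2, eat-2 replicate 1 or 2, double mutant replicate 2 or 3 or wild-type replicate 1 or 3 left out. nhr-178 went from 1.14, 0.659 and 1.1 to 4.46, 3.6 and 4.14 CPM (log2 2.07, SE 0.27, adjusted p = 0.000322) and nhr-232 from 4.87, 3.77 and 5.52 to 10.6, 9.19 and 10.6 (log2 1.11, SE 0.165, adjusted p = 0.00096). The count of rises was 8 without eat-2 replicate 1, 9 without eat-2 replicate 3, 7 without wild-type replicate 1 and 9 without wild-type replicate 3. F-box genes of substrate adaptors for protein breakdown had 9 up and none down of 106 (5 without eat-2 replicate 1 and 4 without wild-type replicate 1), for example fbxa-24 (2.28, 2.26 and 1.4 CPM to 8.93, 10 and 11.2, log2 2.34).

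Several housekeeping groups held few or no calls, where 4.12% of all tested genes rose and 3.54% fell. None of 81 ribosomal protein genes and none of 35 translation factor genes passed, with medians of 0.01 and -0.12. Of 43 respiratory chain and ATP synthase genes 38 had log2 values below 0, with a median of -0.19, and 1 passed, nuo-1 of complex I (395, 399 and 413 CPM to 325, 325 and 307, log2 -0.33). The call of nuo-1 ended without eat-2 replicate 1 or 3 or wild-type replicate 1, 2 or 3 (adjusted p = 0.0699 to 0.13) and with the 6 libraries alone (0.0534). DESeq2 called 12 of these genes and the fit without double mutant replicate 1 called 8. In the double mutant against acs-20, 24 of the 43 fell and 1 rose, with a median of -0.30. Their summed level ran from 23070 to 23671 CPM in wild-type and from 19757 to 22270 in eat-2, with no overlap of the groups. Of 43 chaperone and unfolded protein response genes 2 fell, and the count was 0 with acs-20 replicate 3, eat-2 replicate 2 or 3 or wild-type replicate 1 or 3 left out. hsp-4, the reporter of endoplasmic reticulum stress, was at 444, 456 and 489 CPM in wild-type and 386, 441 and 396 in eat-2 and did not pass (log2 -0.18, adjusted p = 0.465).

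**Figure D4:**
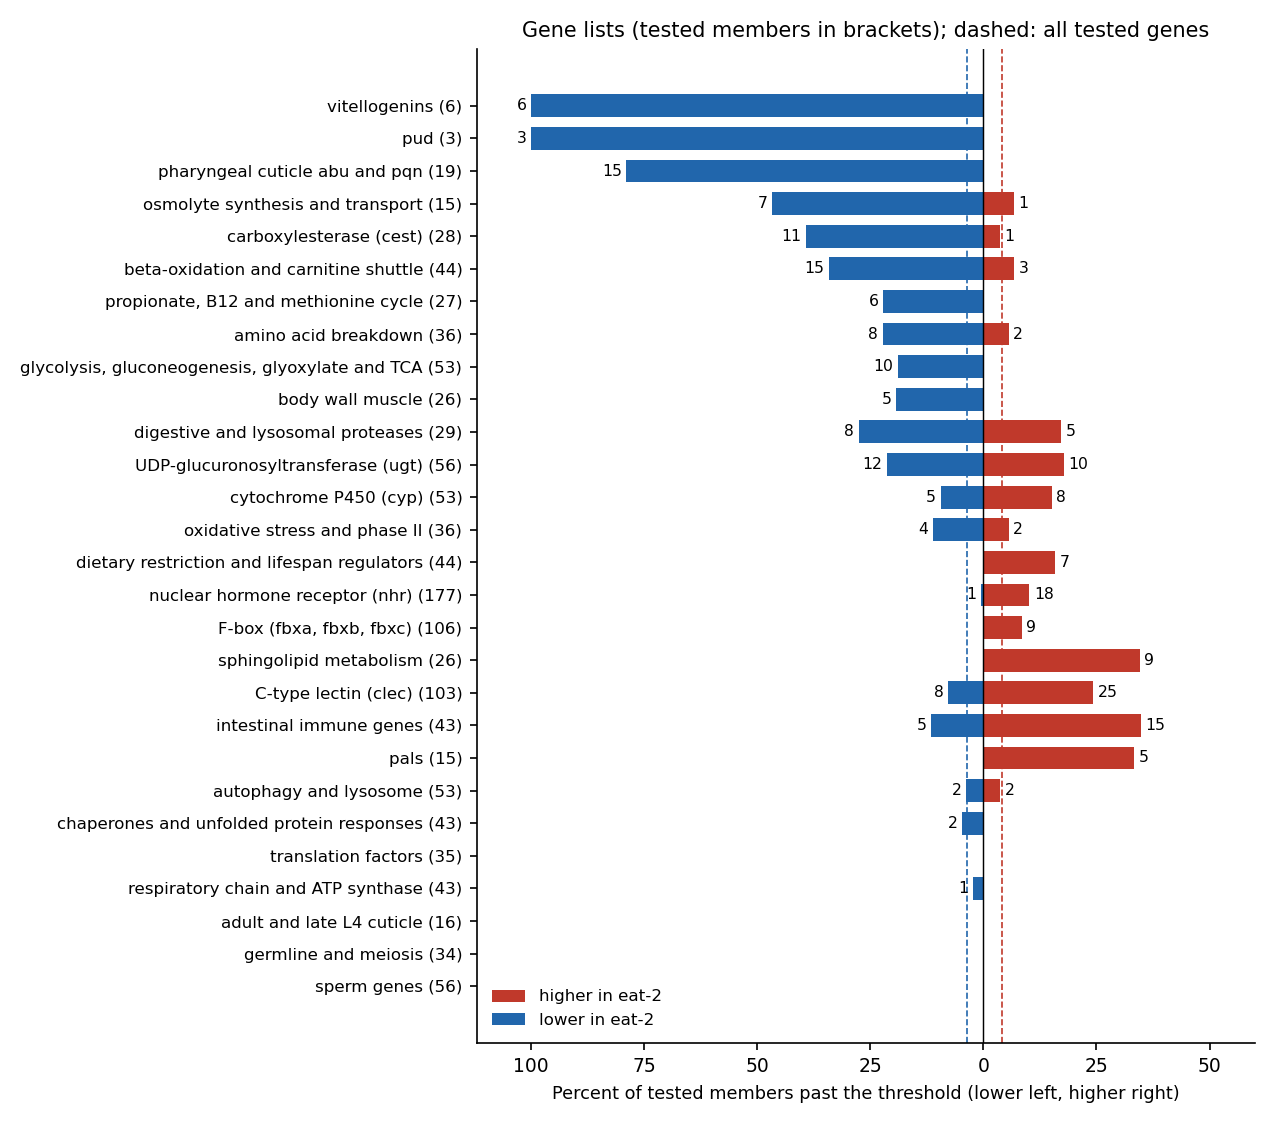
Share of the tested members of 28 gene lists past the threshold, with genes higher in eat-2 to the right and lower to the left, tested members in brackets and counts at the bars. Dashed lines mark the shares over all tested genes, 4.12% up and 3.54% down, and the vitellogenin, pud and abu and pqn lists reach furthest to the left while the intestinal immune, sphingolipid and pals lists reach furthest to the right.

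Other genes with the smallest p or the largest differences included 3 with no assigned role in the lists. C30G12.2 fell from 175, 179.8 and 152 to 18.6, 11 and 18.6 CPM (log2 -3.39, SE 0.192, adjusted p = 4.39e-07), and C40H1.8 rose from 9.02, 10.2 and 13.4 to 70.1, 54 and 46 (log2 2.38, SE 0.168, adjusted p = 2.81e-06). F49C12.7 rose from 19.9, 22.1 and 20.1 to 76.7, 70 and 61.2 CPM (log2 1.74, SE 0.132, adjusted p = 4.35e-06). All 3 kept a gap between the groups larger than the spread within them. clc-11, a claudin-like gene, rose from 0.829, 1.32 and 0.903 to 23.6, 15.3 and 15.4 (log2 4.13, SE 0.354, adjusted p = 1.14e-05). The cuticle collagen genes split, with 8 up and 11 down of 116 and a median log2 of -0.64. Of all tested genes 4.12% were up and 3.54% down. col-166 went from 482, 742 and 468 to 1540.3, 1162 and 1181 CPM (log2 1.2, SE 0.185, adjusted p = 0.00174), col-149 from 543, 598 and 642 to 237, 177 and 295 (log2 -1.33, SE 0.208, adjusted p = 0.002). The collagen falls were 33 without acs-20 replicate 2, 37 with the 6 libraries alone and 41 with DESeq2, against 5 with wild-type replicate 1 left out, 6 without eat-2 replicate 1 or 2, 17 without acs-20 replicate 3 and 20 without double mutant replicate 2. The rises were 13 without wild-type replicate 2.

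Changed genes were spread unevenly over the chromosomes. On chromosome V 11.3% of tested genes changed (187 up and 128 down), on X 9.34% (64 up and 120 down), on II, where eat-2 lies, 7.71%, on IV 6.75%, on III 5.79% and on I 4.92%. Among these 6 chromosomes X alone held more falls than rises, and 5 of the 6 vitellogenin genes lie there. Of the 1103 changed genes 294 overlap, in their exons, an exon of a gene on the other strand, as do 3989 of the 14390 tested genes. At least 50% of the exon length is shared for 15 of the changed genes and 294 of the tested ones.

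The same mutation was measured a second time in acs-20 mutants, by setting the double mutant against acs-20. There 1863 genes passed, or 12.9% of those tested (7.64% up and 5.31% down). That number was 1061 when acs-20 replicate 1 was set aside, 919 for acs-20 replicate 3, 1008 for double mutant replicate 1 and 999 for double mutant replicate 2. Of the 593 genes that rose in eat-2, 576 (97.1%) had the same sign and 427 (72.0%) passed in the same direction, with a median log2 of 1.00. Of the 510 that fell, 437 (85.7%) had the same sign and 268 (52.5%) passed, with a median of -0.49. Among these 1103 genes the log2 fold changes of the 2 comparisons had a Pearson r of 0.785, and over all 14390 tested genes it was 0.603, both given as a description across genes, which are not independent. The asp-12, clec-70, ech-9, ilys-5, spp-17, hmit-1.1, tts-1, daf-9 and lipl-1 changes were past the threshold in both, for example asp-12 at log2 2.78 and ech-9 at 6.0 in acs-20 mutants. All 6 vitellogenins fell there as well. fat-5 and nhr-80 did not pass in acs-20 mutants, at log2 values of 0.23 and 0.12. The acs-20 libraries had 20.8, 19.05 and 18.1 CPM of fat-5, against 8.09, 7.72 and 8.02 in wild-type. The double mutant had 25.5, 24.2 and 18.7 CPM of fat-5. For nhr-80 the acs-20 libraries had 14.4, 14.8 and 19.35 CPM and the double mutant 17.0, 17.5 and 17.8.

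**Figure D5:**
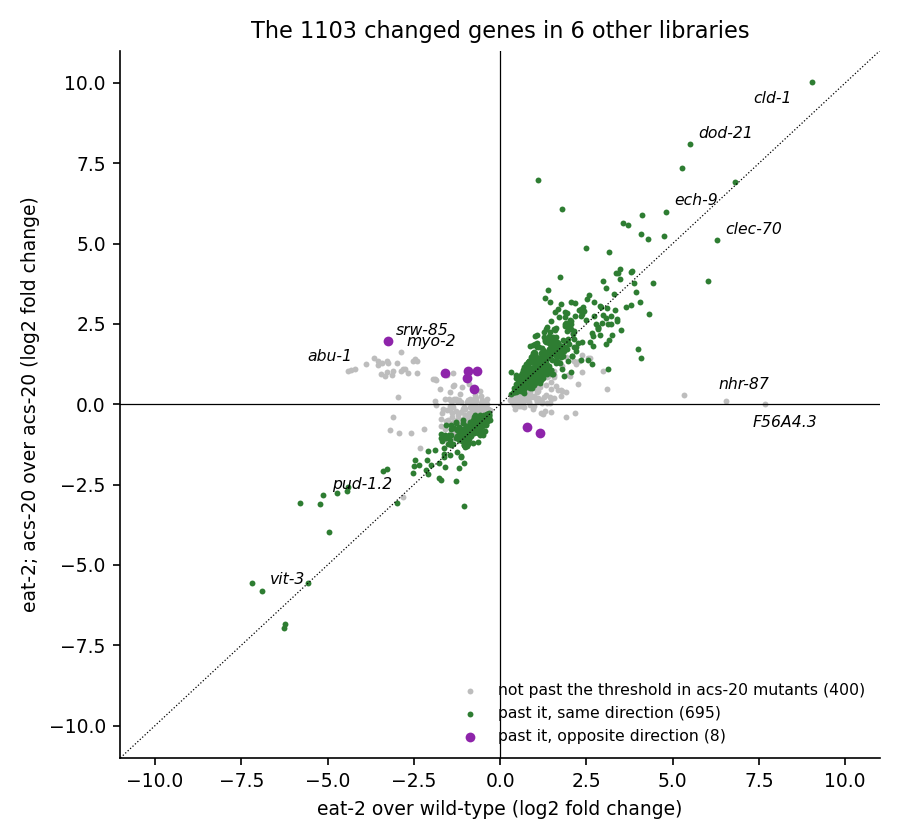
Log2 fold change of the 1103 genes changed in eat-2 over wild-type (x axis) against that of the double mutant over acs-20 (y axis), with the dotted line at equal values. Green points (695) passed in the same direction in acs-20 mutants, grey points (400) did not pass there and purple points (8) passed in the opposite direction, and a grey cluster at the left above 0 holds abu-1 and its relatives.

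The difference between these effects was itself tested, and 27 genes passed, or 0.188% of those tested (0.139% with a positive and 0.0486% with a negative difference), 18 of them among the 1103. nhr-87 was at 0.104, 0 and 0 CPM in wild-type and 3.38, 4.19 and 5.37 in eat-2. With 1 count over the wild-type group and 121 over eat-2, the ratio was 133 (95% interval 23.4 to 5297, counting error only). The acs-20 libraries had 3.06, 2.83 and 2.94 CPM and those of the double mutant 3.26, 3.37 and 2.86, so the 3 wild-type libraries were the low ones among the 12 (interaction log2 -6.46, adjusted p = 0.000269). srw-85, a chemoreceptor gene, went from 3.63, 4.42 and 4.81 to 0.603, 0.349 and 0.377 CPM, and from 5.81, 4.35 and 5.47 to 21.6, 22.6 and 16.8 in acs-20 mutants (interaction log2 5.22, adjusted p = 9.95e-06). For myo-2 the acs-20 libraries had 25.2, 46.4 and 31.6 CPM and the double mutant 66.1, 76.2 and 71.3, higher in the latter, whereas with acs-20 intact it was lower (interaction log2 1.71, adjusted p = 0.00906). pud-1.2 fell in both (log2 -2.83 in acs-20 mutants), with an interaction log2 of 2.29 (adjusted p = 0.0202). Of the 1103 genes 8 passed in opposite directions: lgx-1, myo-2, srw-85, Y43F8B.3, Y69H2.3 and lron-2 were lower in eat-2 and higher in the double mutant, and spp-23 and Y42G9A.3 the reverse. Except for myo-2 and srw-85, these were picked after their values were seen, and the eat-2 call of lgx-1 ended without eat-2 replicate 3 (adjusted p = 0.0812) or wild-type replicate 3 (0.0672). That of myo-2 is given above. The number of differing genes was 8 with eat-2 replicate 3 left out, 150 with acs-20 replicate 2 left out and 69 with wild-type replicate 3 left out, and 11 to 25 for the other libraries.

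Some genes had no reads in any wild-type library. cld-1, on chromosome IV, had 58, 68 and 59 counts in eat-2, at least 67.8-fold more than the floor of 3 counts over the wild-type group. It had 0 counts in each acs-20 library and 94, 200 and 131 in the double mutant. F56A4.3, on chromosome V, had 22, 12 and 41 counts in eat-2, at least 27.5-fold above the same floor, and 0 in each of the other 9 libraries, the double mutant among them. DESeq2 did not call F56A4.3 (adjusted p = 0.398). These genes were picked after their values were seen, and whether a change in the genome of strain DA465 sets these counts cannot be told apart from a response to the eat-2 allele.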

How the data were processed

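Whole worms of 4 genotypes, 3 libraries each, were measured by RNA-seq of total RNA. The authors deposited raw read counts per gene, and per the submitters' processing notes FastQC 0.11.5, TopHat2, HTSeq and DESeq2 were used. The labels state no genome build, annotation or strand setting. Rows that name no gene were set aside. Reads assigned to no gene came to 48.99 to 49.2% of the uniquely placed reads per library. Whether these lay outside genes or on the opposite strand of genes was not tested. Reads with more than 1 position came to 5.206 to 9.989% of all those listed. Counts in genes came to 7116623 to 12016769 counts per library.

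Of 46739 listed genes, 43720 were given a symbol from a table of gene names, and chromosomes and opposite-strand overlaps came from the Ensembl annotation of WBcel235. edgeR 4.0.16 in R 4.3.3 (filter by expression within groups, minimum count of 10, TMM factors, robust quasi-likelihood fit of 4 group means over 12 libraries, 8 residual degrees of freedom) tested 14390 genes. P-values were adjusted by the Benjamini-Hochberg method over all of them, with a threshold of 0.05. Gene-wise adjusted p-values in the report are from this fit unless a setting is named. The scripts were tested on simulated data. DESeq2 1.42.0, RLE factors, no filter, the 6 compared libraries alone, the replicate number as a block, no ribosomal RNA genes and each library left out in turn were alternatives. The labels do not say that libraries came from separate cultures, so p-values measure the spread between these libraries, which may be technical. Intervals and the floor of 3 counts cover counting error only.

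The comparison, the gene lists and the rule for named genes were chosen with earlier results of these data known. By that rule the text draws on changed genes with the smallest p, the largest difference of mean CPM or the largest fold change, up to 4 changed members of each list, all members of small lists, and a set of well-known reporters. For genes picked by p, difference or fold change, the 3 libraries of each group also had to be free of overlap. A gap between the groups in such genes was thus fixed by the rule and adds no support. Further changed members of the sphingolipid, beta-oxidation, immune, protease and carbon lists, the family examples, and myo-1 outside it were chosen after their values were seen.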

Additional observations from a re-analysis of the deposited data

Results flagged for a closer look

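Each gene here showed an eat-2 effect that differed between worms with an intact acs-20 gene and acs-20 mutants in the test of that difference (edgeR quasi-likelihood test, adjusted over 14390 genes), given as the effect in acs-20 mutants minus the effect with acs-20 intact on the log2 scale. The difference was 5.22 for srw-85, 1.71 for myo-2 and 2.29 for pud-1.2. For nhr-87 it was -6.46, and the gene was low in the 3 wild-type libraries only. Differences for the genes picked after their values were seen were 1.37 for myo-1, 2.57 for lron-2, 1.95 for Y43F8B.3, 1.79 for lgx-1, 1.24 for Y69H2.3, -1.49 for spp-23 and -2.04 for Y42G9A.3.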

How the results depend on the processing

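The count of genes changed in eat-2 was 1103, of which 545 changed by at least 2-fold, and 576 to 1272 when 1 of the 12 libraries was left out. It was 954 (467 up, 487 down) with the 6 libraries alone, 1394 (630 up, 764 down) with DESeq2, 1139 (564 up, 575 down) with RLE factors, 1392 without the filter and 1104 without ribosomal RNA genes. None of the 1103 changed genes had the other sign under any of these 18 alternatives. Whether replicate numbers pair the libraries was not tested. Deviations of same-numbered wild-type and eat-2 libraries correlated at -0.076, 0.31 and 0.212. Those of differently numbered wild-type and eat-2 libraries correlated at -0.348 to 0.182. With the replicate number as a block the count of genes changed in eat-2 was 1481. The eat-2 effect in acs-20 mutants had 1863 calls, 2422 with the replicate block and 919 to 2026 when 1 library was left out. The difference between the effects had 27 calls, 114 with DESeq2, 99 without the filter, 56 with the replicate block and 8 to 150 when 1 library was left out. Of 109 changed genes named in the text, 85 kept the call in every alternative and 24 lost it in at least 1. Of 16 named genes that did not pass, 6 passed in at least 1 alternative (acdh-1, acs-2, acs-20, col-19, lipl-5 and myo-1). The median log2 of all tested genes was 0.0403, 0.0206 with RLE factors and 0.0179 with DESeq2. Low depth limits genes with few counts, such as the eat-2 gene, for which no change was detectable.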
